A study of Rattus norvegicus with 99 samples.

Results

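The genes described here are the cytosolic ribosomal protein genes of the rat heart, the set that encodes the protein part of the ribosomes outside the mitochondria. They were chosen by symbol, Rpl or Rps followed by a number or one of the P and A names, and by a minimum of 10 reads in 50% or more of the 99 libraries. Of 17337 genes in the table, 82 symbols fitted and 78 reached the minimum. The 78 members are 44 genes of the large subunit and 30 of the small subunit, called the 74 core genes below, and 4 paralogs kept apart, Rpl3l, Rpl22l1, Rps27l and Rps4y2. The symbols below the minimum were Rpl37a, Rplp2, Rps19 and Rpl39l, with median reads of 3, 8, 3 and 1 per library and at most 8, 23, 10 and 34 reads in any library.

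The animals were 33 male F1 rats from a cross of Wistar Kyoto females with Lewis males. From each heart the septum (Spt), the left ventricle (LV) and the right ventricle (RV) gave 1 library apiece. A clip that grows tight with the animal was set around the pulmonary artery (PAB), which loads the RV, or around the aorta (AOB), which loads the LV, and sham animals were operated without banding. At the stage of compensated hypertrophy (H) there were 7 Sham-H, 7 PAB-H and 7 AOB-H animals, aged 11 weeks and 7 weeks after surgery by the labels. At the stage of heart failure (F) there were 2 Sham-RF and 3 PAB-F animals, aged 27 weeks and 21 weeks after surgery, and 3 Sham-LF and 4 AOB-F animals, aged 30 weeks and 24 weeks after surgery. The study's text gives other ages.

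A ribosome joins a small subunit, which decodes the mRNA, with a large subunit, which forms the peptide bond. Each carries ribosomal RNA and a fixed set of proteins, nearly all present once per ribosome, so cells make these proteins in matched amounts. Their mRNAs are short and very abundant. Many of them belong to the terminal oligopyrimidine (TOP) class, whose transcripts open with a C followed by a run of C and T. This opening places their translation under the kinase complex mTORC1. In striated muscle a few core proteins have paralogs, of which Rpl3l, a relative of Rpl3 made in heart and skeletal muscle, is the best known.

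The opening bases are shown because they are a shared feature that the choice of members did not use. The sequences below run from 10 bases before the annotated start to 20 bases from it, 5′ to 3′ on the strand of the gene. They come from RefSeq on the build GRCr8, and capitals mark a C followed by at least 4 C or T.
Rps27 (chr2:177964587-177964616, minus strand): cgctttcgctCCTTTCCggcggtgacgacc
Rps18 (chr20:4933735-4933764, plus strand): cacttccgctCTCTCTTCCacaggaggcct
Rplp0 (chr12:46718371-46718400, minus strand): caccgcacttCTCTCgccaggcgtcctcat
Rpl22 (chr5:168117951-168117980, plus strand): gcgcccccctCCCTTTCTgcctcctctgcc
Rpl3 (chr7:113507971-113508000, minus strand): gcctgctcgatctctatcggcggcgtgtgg
Rpl3l (chr10:14258436-14258465, plus strand): ctggtgcctggtggggaggtCCCTTCCTaa

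In Rps27, Rps18, Rplp0 and Rpl22 the run began at the annotated first base. The window of Rpl3 held none, and that of Rpl3l held a run that began 10 bases after the start. Promoters of 56 of the 74 core genes were matched by NCBI gene identifier. The run began exactly at the start in 21 of the 56 (37.5%), against 2.6% of all 27457 promoters in the table. Within 10 bases on either side of the start it was present in 43 of the 56 (76.8%), against 28.8% of all promoters. On the opposite strand the shares were 14.3% and 35.0%. Of the 4 paralogs, 0 had the run at the start. For comparison, mitochondrial ribosomal protein genes had it at the start in 3.6% of 55 matched promoters, and ribosome biogenesis genes in 9.5% of 21. Of 11 matched translation factors of the TOP class, 0 had it at the start and 8 (72.7%) within 10 bases. A match describes the letters only, and it was not tested whether the annotated starts are those used in the heart.

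The median library held 17.4 M counts (M, mega), the smallest 12.1 M and the largest 24.2 M. By the numbers the labels give them, the libraries form 3 separate series, 1, 2 and 3. Among the H animals in LV and RV, replicates 1 and 2 belong to series 1, 3 to 5 to series 2, and 6 and 7 to series 3, in the same layout in all conditions. All F libraries of LV and RV belong to series 2. In Spt, H replicates 1 and 5 are series 2 and the remainder, with all F libraries, series 3. In 3 animals, Sham-H replicate 6, PAB-H replicate 2 and AOB-H replicate 1, the difference between the RV and LV libraries over 50 chamber genes ran opposite to that of the other animals. Results are therefore also given without these 3. Myh6, the main myosin heavy chain of the rat ventricle, ranged from 2309 to 26621 CPM (counts scaled to a library total of 1 M, the total adjusted by TMM normalization) across libraries. The lowest library was in LV AOB-F. Its values overlapped between LV, Spt and RV, so Myh6 does not check the chamber labels. Sln, an atrial gene, ranged from 0.201 to 304.7 CPM, with the highest library in RV PAB-F.

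Compared per transcript length, in FPKM, the core genes spanned a very wide range. Their medians over the 99 libraries ran from 0.929 for Rps9 to 2393 for Rps29, with a median of 628.1. The highest after Rps29 were Rps27 at 1678 FPKM and Rpl13a at 1634 FPKM, and 11 core genes were among the 100 genes of highest FPKM. Rps29 and Rps27 are small zinc-binding proteins of the small subunit, and Rpl13a is a large subunit protein also known for a role in interferon responses.

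At the lower end, Rps9 (0.929), Rpl8 (0.996) and Rpl7a (2.43 FPKM) stood far below the rest, and 7 core genes in all were under 100 FPKM. Their median reads per library were 25, 42 and 143. Ribosomal protein genes have many processed pseudogenes of near-identical sequence, between which the authors' counting could split reads. Levels set between members, the very low values and the 4 symbols below the minimum are therefore uncertain, and the part of such copies was not tested. In the plot of levels the low members separate from the main body.

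**Figure D1:**
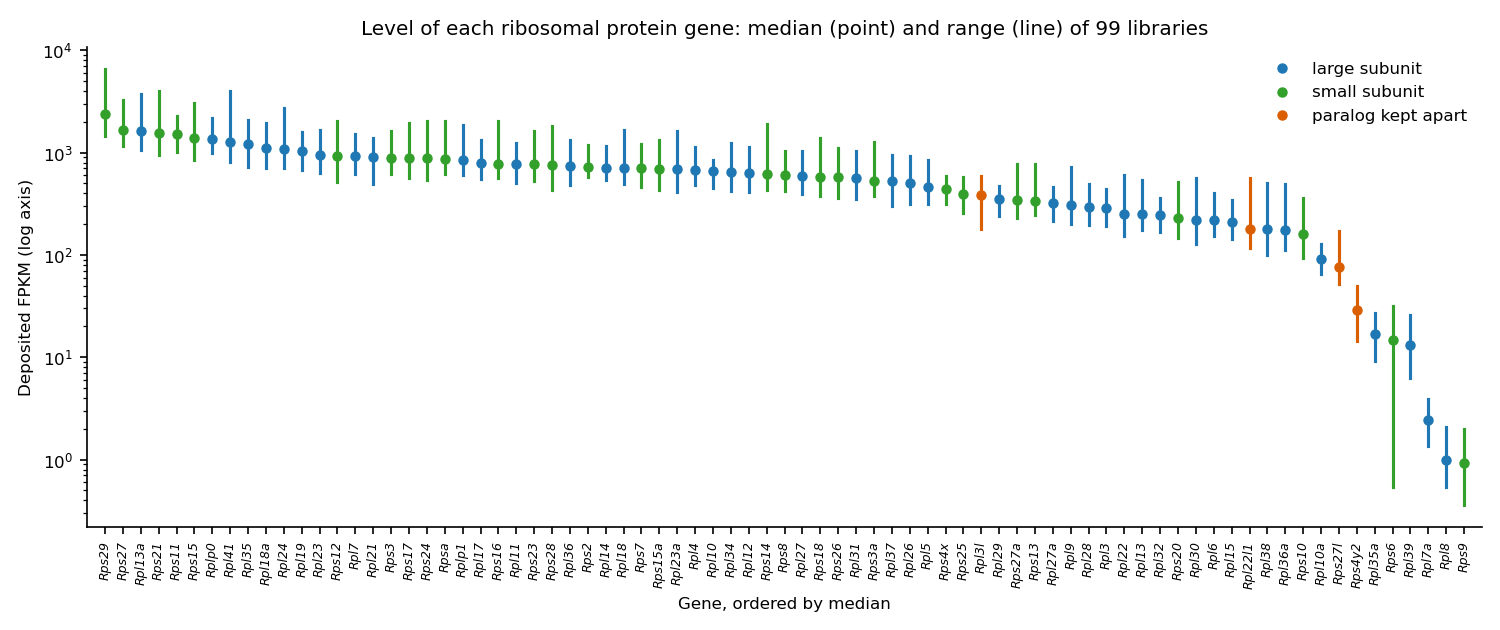
FPKM of the members reported here over the 99 libraries on a log axis, 1 position per gene ordered by median, with the point at the median and the line from the lowest to the highest library. Core genes of the large (blue) and small (green) subunit spread from Rps9 at 0.929 to Rps29 at 2393, and the 4 paralogs are orange.

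The paralogs were not rare in this tissue. Rpl3l had a median of 384.1 FPKM, above its core relative Rpl3 at 286.5 FPKM. Rpl22l1 stood at 181.1 FPKM beside 253.8 for Rpl22, a large subunit protein with roles in lymphocyte development. Rps27l, a relative of Rps27 that p53 can induce, stood at 76.8 FPKM, and Rps4y2, a relative of Rps4x, at 28.8 FPKM. These levels carry the same uncertainty about near-identical copies.

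Across the 99 libraries the core genes rose and fell together. The mean log2 CPM of the core genes had a standard deviation (SD) of 0.271 over libraries. Once that mean was taken off, the median SD of a core gene was 0.097, and 38 of the 74 were under 0.1. The correlation of a gene with the mean of the other core genes, across libraries that share animals and series, had a median r of 0.953 and a lowest value of 0.507, for Rps9. Among the steadiest relative to the mean were Rpl28 and Rpl12, of the large subunit, with SDs of 0.051 and 0.053. Those that departed most were Rps9, Rps6 and Rpl39, with SDs of 0.495, 0.490 and 0.254, and their median reads of 25, 404 and 228 were among the lowest. Among the 68 core genes with 1000 or more median reads the lowest r was 0.755, for Rplp0, which encodes the base of the ribosomal stalk.

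The high SD of Rps6, the ribosomal protein phosphorylated by S6 kinase, came from 1 library. Spt PAB-F replicate 3 held 14 Rps6 reads, against a median of 404 and no fewer than 267 in every other library, a log2 difference of -4.77 from the median. Of 5276 genes at least as abundant, only Rps6 itself was 2 or more log2 units below its median there. In Spt PAB-F this gave Rps6 CPM of 21.4, 23.7 and 0.873, against 26.7 and 28.3 in Sham-RF, and a log2 fold change of -0.85 ± 0.476 (SE) with an adjusted p of 0.816 by edgeR. The low value belongs to the single library and not to the group.

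Together the core genes held between 2.289% and 4.798% of the counts of a library, with a median of 3.225%. The lowest was LV Sham-H replicate 5. The highest was Spt Sham-H replicate 5, followed by LV AOB-F replicate 1 at 4.35%. Spt Sham-H replicate 5 stood apart from every other library. Of the core genes, 57 of 74 (77.0%) had their highest CPM of all libraries there, as did 539 of 888 other abundant short genes (60.7%) and 21.9% of 7651 genes of at least 10 CPM. Short is used here for lengths from 318 to 1503 bases, the range up to the 90th percentile of core genes. Abundant is used for a mean of at least 50 CPM, here by totals without the TMM adjustment. The core medians of the Spt comparisons that contain this library are given with and without it.

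**Figure D2:**
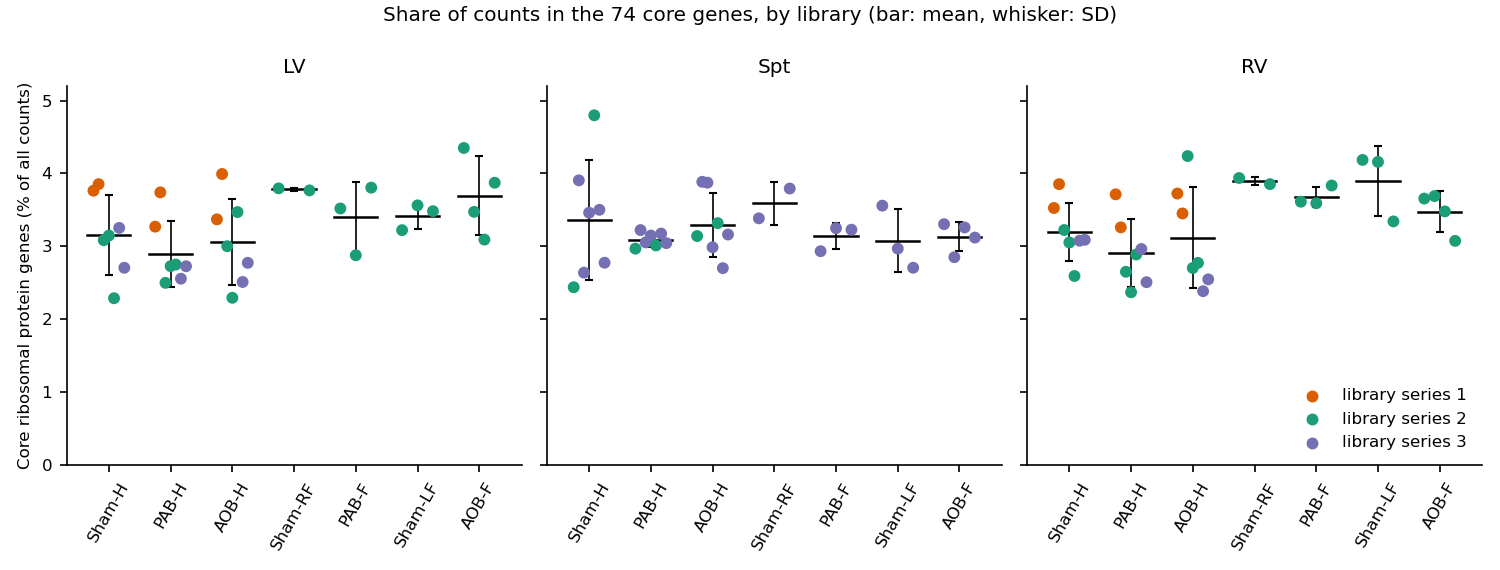
Share of all counts, in percent, held by the 74 core genes in each library, by chamber and condition, with points coloured by library series, the bar at the group mean and the whisker at 1 SD. Shares run from 2.289% to 4.798%, and in LV and RV the H libraries of series 1 lie in the upper range.

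Within the H animals the share differed between library series. In LV the 6 libraries of series 1 had a lowest, median and highest share of 3.27%, 3.75% and 3.99%. The 9 of series 2 had 2.29%, 2.75% and 3.47%, and the 6 of series 3 had 2.51%, 2.72% and 3.25%. Series 1 therefore overlapped series 2 only between 3.27% and 3.47% and lay above all of series 3. In RV the 3 series had medians of 3.62%, 2.77% and 2.76%, with the highest single library, at 4.24%, in series 2.

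The difference between series covered nearly all core genes. Fitted with the condition in the model, 73 of 74 core genes were called lower in LV series 2 than in series 1, and 73 in series 3 than in series 1, at a Benjamini-Hochberg adjusted p under 0.05 by edgeR. Over all genes tested, 28.3% and 28.4% were called lower. In RV, 72 and 73 of 74 were called lower, against 22.2% and 24.3% of all genes. The median log2 fold changes of the core genes were -0.57 and -0.60 for LV, -0.41 and -0.48 for RV. Those of the 888 other abundant short genes were -0.41 and -0.42 for LV, -0.30 and -0.35 for RV. Without the 3 doubted animals 73 and 72 core genes were called lower in LV, and 68 and 67 in RV. The core genes not called were Rps9 in LV series 2, Rpl8 in LV series 3, Rpl3 and Rps9 in RV series 2, and Rpl39 in RV series 3. The 4 paralogs were called lower in all 4 comparisons too, with the smallest falls in Rpl3l (-0.38 and -0.38 in LV, -0.21 and -0.21 in RV).

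Rps28, which encodes one of the shortest ribosomal proteins, had the largest fall in LV series 2. It had 315, 358.9 and 413.4 CPM (lowest, median, highest of 6) in series 1 and 144, 191.2 and 253.2 CPM (of 9) in series 2, with no overlap, a log2 fold change of -0.90 ± 0.103 (SE) and an adjusted p of 2.59e-07 by edgeR. Rpl21 fell by 0.84 and Rpl8 by 0.89 on the log2 scale in the same comparison. In LV series 3 the largest falls were in Rpl36a (-0.86), Rps6 (-0.83) and Rps28 (-0.81), and in RV in Rps28, Rpl38 and the paralog Rps4y2 (series 2) and in Rpl36a, Rps6 and Rpl38 (series 3). Rpl21 and Rpl36a are proteins of the large subunit, as is Rpl8, whose values rest on a median of 42 reads per library.

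All genes moved with length in this comparison. In LV series 2 against series 1, genes under 750 bases had a median log2 fold change of -0.52, those of 750 to 1500 bases -0.29, those of 1500 to 3000 bases -0.05, those of 3000 to 6000 bases 0.24 and those of 6000 bases and more 0.44. Of the shortest class 71.2% were called lower, and of the longest 77.7% were called higher. The core genes in the classes under 750, 750 to 1500 and over 1500 bases had medians of -0.63, -0.52 and -0.58. By these lengths the 8 core genes over 1500 bases were below other genes of their class. The lengths are those implied by the deposited FPKM. Whether they are the lengths of the transcripts in the heart was not tested, so this comparison is uncertain. Fragment length and RNA quality of the series are not given in the sources used here.

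**Figure D3:**
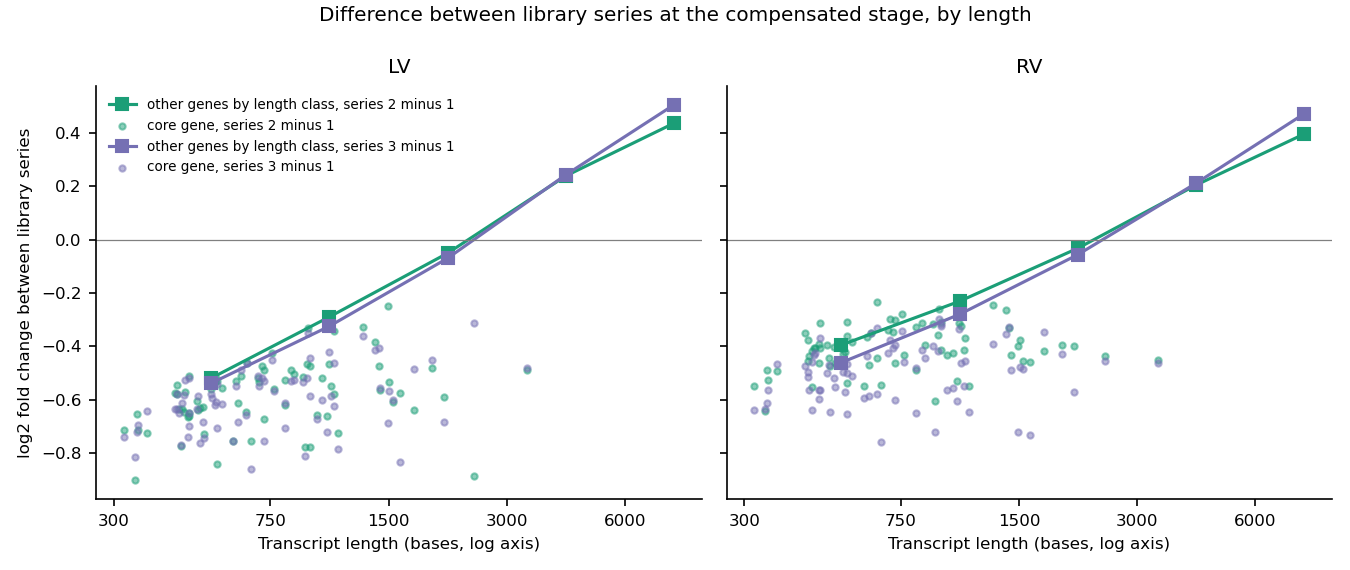
Log2 fold change of series 2 against series 1 by transcript length on a log axis, in LV and RV, and of series 3 against series 1 in a second colour. Lengths are those implied by the deposited FPKM. Points are core genes and squares joined by lines are medians of other genes in 5 length classes, which run in LV series 2 from -0.52 in the shortest to 0.44 in the longest, while every core gene lies below 0.

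The question of the study's main design, whether banding changed these genes, was addressed within each chamber by setting every banded group against the shams of its age. None of the 74 core genes passed the test in any of the 12 comparisons, and DESeq2 also called 0. Median log2 fold changes of the core genes lay between -0.281 and 0.054. In 10 of the 12 comparisons edgeR called 0% of all genes tested, while between 110 and 1851 genes had an unadjusted p under 0.05 there and DESeq2 called from 0 to 3. In LV AOB-F 0.837% of all genes were called, and in Spt AOB-F 0.232%. At an unadjusted p under 0.05 there were 3 core genes lower in Spt PAB-H, 3 lower in RV AOB-F and 0 in each of the other comparisons, where 4.44% (Spt PAB-H) and 12.9% (RV AOB-F) of all genes passed in either direction. Because bulk tissue was measured, fewer cells of a type and less RNA per cell cannot be told apart.

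In LV the core medians were -0.118 for PAB-H, -0.040 for AOB-H, -0.155 for PAB-F and 0.054 for AOB-F. In RV they were -0.130, -0.020, -0.107 and -0.281 in the same order. The other abundant short genes had medians of -0.054, -0.046, -0.052 and -0.093 in LV and -0.037, 0.005, -0.081 and -0.217 in RV. In LV AOB-F 57 of 74 core genes had a positive log2 fold change, but the sign of that median rested on single animals, since it was -0.030 without AOB-F replicate 1 and -0.007 without Sham-LF replicate 1. Leaving out single animals also turned the sign for LV AOB-H (-0.151 to 0.039) and RV AOB-H (-0.107 to 0.046). Without the 3 doubted animals the medians for PAB-H and AOB-H were -0.224 and -0.096 in LV, with -0.207 and -0.106 for RV, and 0 core genes were called.

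In Spt the medians were -0.186 for PAB-H, -0.145 for AOB-H, -0.243 for PAB-F and -0.054 for AOB-F. Leaving out Spt Sham-H replicate 5 moved the first to -0.014 and turned the second to 0.042, so the 2 lower values at the H stage rested on that sham library. The median of AOB-F was 0.040 without Sham-LF replicate 1 and -0.147 without Sham-LF replicate 3. With all libraries, the other abundant short genes had -0.132 (PAB-H), -0.161 (AOB-H), -0.145 (PAB-F) and -0.109 (AOB-F). Other genes of at most 699.5 bases, the median core length, had -0.181, -0.172, -0.216 and -0.112 in the same order. Without Spt Sham-H replicate 5 the abundant short genes had -0.017 for PAB-H and -0.042 for AOB-H. The lowest p in PAB-H belonged to Rpl41 and Rpl18, with log2 fold changes of -0.42 ± 0.198 and -0.30 ± 0.143 (SE) and adjusted p of 0.79 for both. Both values are from the fit that includes Spt Sham-H replicate 5. In that fit 3 core genes were lower in PAB-H at an unadjusted p under 0.05 by edgeR, and 0 were without the library. Rpl41 is the smallest protein of the ribosome.

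The core share of the loaded ventricle gives the same picture in single animals. In LV the share was 2.29%, 3.15% and 3.85% (lowest, median, highest of 7) in Sham-H and 2.30%, 3.00% and 3.99% in AOB-H. At failure it was 4.35%, 3.47%, 3.09% and 3.87% in the 4 AOB-F animals and 3.22%, 3.56% and 3.48% in the 3 Sham-LF animals. The AOB-F values lay on both sides of the sham range. In RV the share was 3.61%, 3.59% and 3.84% in PAB-F against 3.94% and 3.85% in Sham-RF.

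The largest shift of the core median among the F groups was in the RV of AOB-F animals, the ventricle that the aortic clip does not load directly. Other short genes shifted there too. The core median was -0.281, beside -0.217 for the other abundant short genes. Other genes of at most 699.5 bases, the median core length, had -0.272 in RV AOB-F. Rpl36, a large subunit protein, had 269.6, 350.8, 328.1 and 246.8 CPM there and 485.7, 467, and 302.9 CPM in Sham-LF. Rpl35a had 29.5, 31.4, 29.0 and 29.8 CPM against 45.6, 45.4 and 32.0 CPM, with no overlap. Their log2 fold changes were -0.48 ± 0.222 and -0.45 ± 0.202 (SE) with adjusted p of 0.368 and 0.367 by edgeR. Sham-LF replicate 3 was the lowest of the shams for both genes and lay close to the banded animals, and 71 of the 74 core genes had a negative log2 fold change. The summed CPM of 10 cardiomyocyte markers, of which 0 were called, was 81627, 107539, 110429 and 90202 in these RV AOB-F animals, all below the 125008, 115804 and 110785 of Sham-LF. That of 8 macrophage markers was 603.6, 385.3, 380.1 and 510.9 against 486.8, 523.7 and 383.4, with overlap. The atrial sum of Myl7, Myl4 and Sln was 36.55, 814.3, 121.1 and 28.88 against 87.24, 86.19 and 930.5. The part of these cells in the result was not tested.

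**Figure D4:**
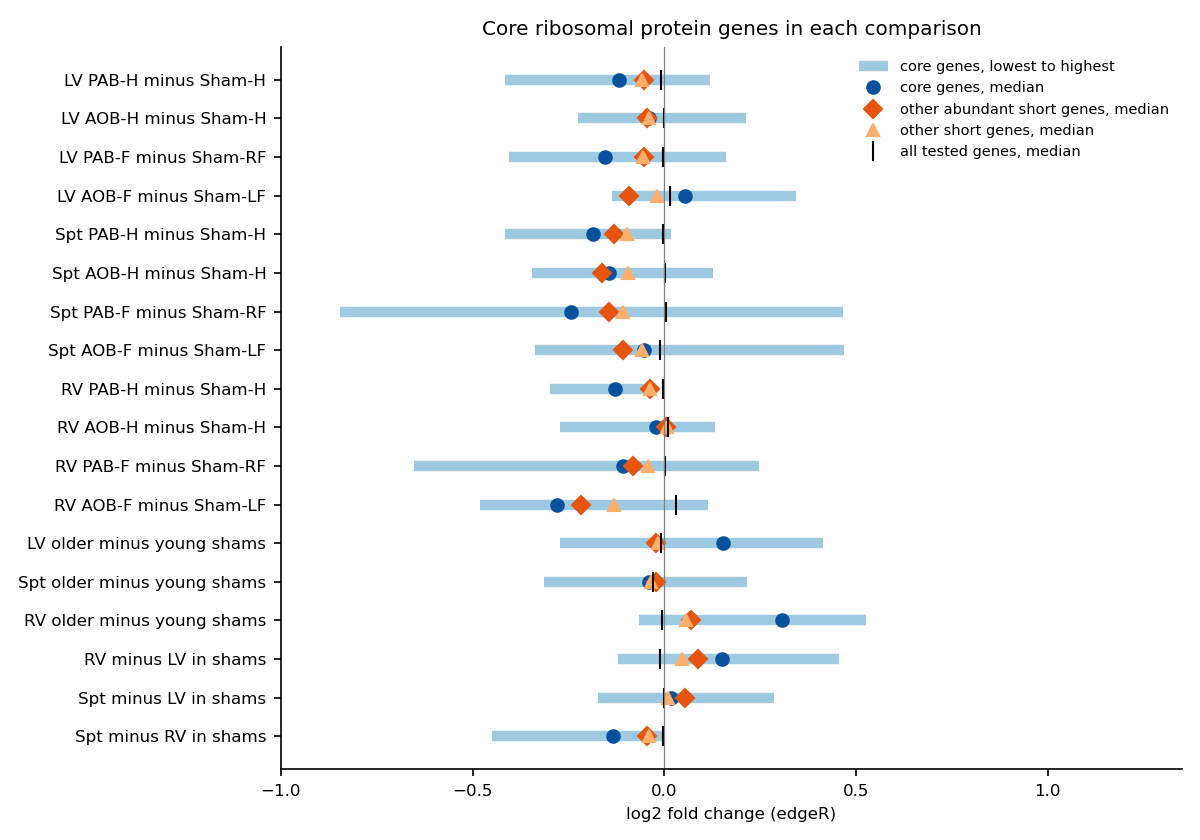
Log2 fold change of the core genes in the banding, age and chamber comparisons, shown as a band from the lowest to the highest core gene. Markers stand for the medians of the core genes, the other abundant short genes, all other short genes and all genes tested, and the core medians of the 12 banding comparisons lie between -0.281 and 0.054 while those of older LV and RV shams lie at 0.153 and 0.306.

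Of 4 core genes widely used as references in RT-qPCR, Rpl13a, Rps18 and Rpl32 followed the joint movement. Their r with the mean of the other core genes was 0.988, 0.961 and 0.931. Rplp0 followed it less closely, with an r of 0.755 and an SD of 0.178 once the core mean was taken off. Over the 99 libraries the SD of log2 CPM was 0.233 for Rplp0, 0.279 for Rpl32, 0.304 for Rpl13a and 0.315 for Rps18. In LV Rplp0 had means of 1466 ± 293 (SD, n = 7) CPM in Sham-H and 1471 ± 271 in AOB-H, and 1642 ± 60.5 (n = 3) in Sham-LF and 1794 ± 404 (n = 4) in AOB-F. Rpl32 had 136.9 ± 11.5 CPM in Sham-LF and 135.5 ± 20.7 in AOB-F. These differences were within the spread of the groups, and the LV groups of 7 contained all 3 series.

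Age was addressed by setting the 5 older shams (27 and 30 weeks) against the 7 Sham-H animals (11 weeks). In RV 73 of 74 core genes had a positive log2 difference, with a median of 0.306, and in LV also 73 of 74, with a median of 0.153. Without single animals the RV median ran from 0.248 to 0.376, while the LV median was lowest, 0.090, on leaving out Sham-H replicate 5 and highest, 0.239, on leaving out Sham-H replicate 2. In Spt the median was -0.040, and 0.155 without Spt Sham-H replicate 5. edgeR and DESeq2 called 0 core genes in all 3 chambers, where 0.0852% (RV), 0.0171% (LV) and 0.103% (Spt) of all genes were called by edgeR. At an unadjusted p under 0.05, 35 core genes were higher in RV and 0 in LV and Spt, and in RV 11% of all genes passed that limit in either direction. The other abundant short genes had medians of 0.069 in RV and -0.021 in LV. Other genes of at most 699.5 bases, the median core length, abundant or not, had medians of 0.174 in RV and 0.0015 in LV.

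Age is tied to library series here, since the older LV and RV libraries are all series 2 and the young ones include series 1, in which core genes were higher. Within series 2 alone, with 5 older and 3 young animals, the medians were 0.439 in RV and 0.357 in LV, and those of the abundant short genes 0.145 and 0.065. In that subset 66 core genes in RV and 53 in LV had an unadjusted p under 0.05, as did 16.6% (RV) and 7.3% (LV) of all genes, and edgeR called 0 genes. With the series as a covariate the RV median was 0.415 and 4 core genes were called, beside 47 of 11734 genes in all (0.401%). The LV median was then 0.329 with 0 core genes called, beside 0.0342% of all genes. Without the 3 doubted animals the medians were 0.268 in RV and 0.147 in LV.

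The 4 called with the covariate were Rpl36, Rps20, Rps28 and Rps29. Rpl36 had 381.3 and 372.2 CPM in RV Sham-RF, 485.7, 467, and 302.9 CPM in RV Sham-LF, and 216.3, 278.6 and 375.6 CPM (lowest, median, highest of 7) in RV Sham-H. Its 3 young libraries of series 2 had 286.2, 256.8 and 216.3 CPM, all below the 5 older libraries. The log2 difference was 0.48 ± 0.172 (SE) with an adjusted p of 0.318 without the covariate, and 0.65 with an adjusted p of 0.0447 with it. Rps28 moved by 0.67, Rps29 by 0.57 and Rps20 by 0.47 with the covariate, at adjusted p of 0.0468, 0.0467 and 0.0468. Rps20 binds the head of the small subunit, and Rps28 and Rps29 are among the shortest members.

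Without the covariate the lowest p in RV belonged to Rpl35, near the exit of the peptide tunnel, and to Rpl27a. Rpl35 had 759.4 and 695.4 CPM in Sham-RF, 931.4, 868.2 and 573.6 in Sham-LF, and 382.2, 525.3 and 703.8 (lowest, median, highest of 7) in Sham-H. The groups overlapped through Sham-LF replicate 3 and the Sham-H libraries of series 1. The log2 differences were 0.48 ± 0.164 for Rpl35 and 0.38 ± 0.133 (SE) for Rpl27a, with adjusted p of 0.296 and 0.315.

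The chambers of the 12 sham animals were compared with each other in 1 model of the 99 libraries. Between RV and LV 73 of 74 core genes had a positive log2 difference, with a median of 0.151, but none was called, against 12.6% of all genes. DESeq2 called 0 as well, and 7 core genes had an unadjusted p under 0.05, as did 29.3% of all genes. The median was 0.093 without Sham-LF replicate 1. Spt differed from LV by a median of 0.018 and from RV by -0.134, with 0 called by either tool, against 2.55% and 6.73% of all genes, and 0 core genes at an unadjusted p under 0.05 in each. Without Spt Sham-H replicate 5 these medians were -0.062 and -0.210, and 18 core genes had an unadjusted p under 0.05 for lower values in Spt than RV, beside 22.8% of all genes in either direction. With all animals, the other abundant short genes had medians of 0.087 (RV against LV), 0.055 (Spt against LV) and -0.046 (Spt against RV). Other genes of at most 699.5 bases had 0.120, 0.050 and -0.061 in the same order. With the animal as a replicate block, edgeR called 2415, 547 and 1335 genes in place of 1498, 304 and 803.

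Rpl31, a protein at the rim of the peptide tunnel exit, had the lowest p between RV and LV. Its CPM was 196.2, 314.3 and 457.1 (lowest, median, highest of 12) in RV and 165.3, 257.3 and 298.1 in LV, and it was higher in RV in 11 of 12 animals. The log2 difference of 0.39 ± 0.148 (SE) had an adjusted p of 0.0637. It was called, as the only core gene, with the animal as a block (0.38, adjusted p 0.0369), where 20.3% of all genes were called, and without the 3 doubted animals (0.44, adjusted p 0.0311), where 19.8% were. Rps24, of the small subunit, was also higher in RV in 11 of 12 animals, by 0.37 ± 0.154 with an adjusted p of 0.0944. Rplp0 was higher in RV in only 2 of 12 animals, with a log2 difference of -0.12 ± 0.106 and an adjusted p of 0.441. The share of counts held by the core genes was higher in RV in 7 of 12 animals. Marker genes of other cells also differed between these chambers, with 4 of 8 macrophage markers lower in RV and 1 of 7 endothelial markers higher, and their part in the result was not tested. Of 3 mesothelial markers 2 were higher and 1 lower, and 0 were called among the cardiomyocyte, fibroblast, lymphocyte, smooth muscle and pericyte, erythroid, atrial and adipocyte markers. Over the 15 banding and age comparisons the fibroblast list had 1 call for a higher and 3 for a lower value, and the other 9 cell type lists had 0.

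Rpl3l and Rpl3, which fill the same place near the catalytic centre of the large subunit, had values of opposite direction in the failing LV of AOB animals. In LV AOB-F the 4 animals had 241.4, 438.0, 452.2 and 242.2 CPM of Rpl3l, against 520.3, 556.3 and 453.1 CPM in Sham-LF. They had 573.8, 438.9, 372.7 and 548.1 CPM of Rpl3, against 356.7, 400.1 and 385.9 CPM. Replicates 1 and 4 had the low Rpl3l with the high Rpl3, while replicates 2 and 3 were at or near the sham values. All 4 Rpl3l values lay below the 3 shams.

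Rpl3l had a log2 fold change of -0.57 ± 0.187 (SE) with an adjusted p of 0.138, and Rpl3 one of 0.34 ± 0.183 with an adjusted p of 0.451, both by edgeR. Over the alternatives the adjusted p of Rpl3l ranged from 0.0224 to 0.608. It was called with the library series as a covariate (-0.57, adjusted p 0.0359), without AOB-F replicate 2 (-0.72, 0.0488) and without AOB-F replicate 3 (-0.73, 0.0224). Without AOB-F replicate 1 it was -0.43 (0.608) and without replicate 4 it was -0.43 (0.571). The value rests on replicates 1 and 4.

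The log2 ratio of Rpl3l to Rpl3 reads, with 0.5 added to each, puts both genes on the same footing within a library, since their lengths of 1336 and 1291 bases are close. Over the 99 libraries it had a median of 0.473 and ran from -1.249 to 1.181, and 12 libraries had more Rpl3 than Rpl3l. In LV AOB-F it was -1.249, -0.003, 0.279 and -1.178, against 0.545, 0.475 and 0.232 in Sham-LF. The difference of -0.955 had p = 0.143 in a 2-sided exact permutation test, in which the smallest p possible was 0.0286, and 0.617 after adjustment over 18 comparisons.

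Spt AOB-F had ratios of -0.468, 0.373, -0.336 and 0.375 and a difference of -0.586 (exact permutation p = 0.171, adjusted 0.617). RV AOB-F had -0.644, 0.2, 0.434 and -0.343 and a difference of -0.450 (exact permutation p = 0.257, adjusted 0.636). In RV PAB-F the ratios were 0.371, -0.225 and -0.324, against 0.141 and 0.313 in Sham-RF, a difference of -0.286 (exact permutation p = 0.4, with 0.1 the smallest possible). A low ratio was thus found in a part of the animals of each of these groups. A sample sheet of the study exchanges replicates 1 and 2 of Spt AOB-F, so their Spt values cannot be set against LV and RV by animal. Replicate 3 had more Rpl3 than Rpl3l in Spt but not in LV or RV. Replicate 4 had it in LV and RV but not in Spt.

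At the H stage the differences were smaller. The 6 of them lay between -0.257 (Spt AOB-H, exact permutation p = 0.11, adjusted 0.617) and 0.206 (LV PAB-H, exact permutation p = 0.147, adjusted 0.617). With age the RV ratio was lower by 0.27, from a mean of 0.578 ± 0.181 (SD, n = 7) in Sham-H to 0.308 ± 0.167 (n = 5) in older shams, with an exact permutation p of 0.024 that came to 0.432 after adjustment. Within series 2 alone the RV difference was -0.377 (exact permutation p = 0.0357). Between the chambers of sham animals the differences were 0.063, 0.135 and 0.072, with adjusted p from 0.636 to 0.651 in an exact sign-flip permutation test over 12 animals.

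**Figure D5:**
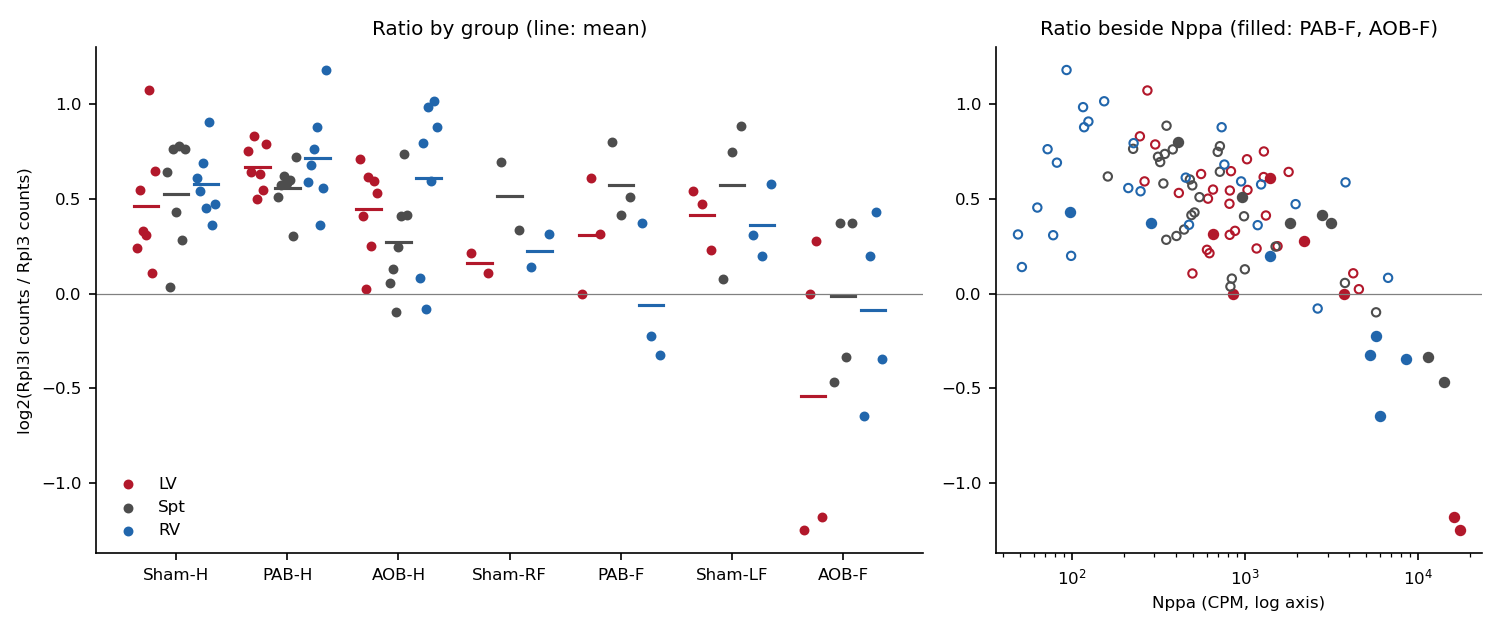
Log2 ratio of Rpl3l to Rpl3 reads in each library by chamber and condition, with a point per animal and a line at the group mean, and beside it the same ratio against Nppa CPM on a log axis with PAB-F and AOB-F filled. Values under 0, where Rpl3 exceeded Rpl3l, occur in 12 libraries, with the 2 lowest, -1.249 and -1.178, in LV AOB-F.

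The 8 libraries of lowest ratio were LV AOB-F replicates 1 and 4, RV AOB-F 1, Spt AOB-F 1, RV AOB-F 4, Spt AOB-F 3, and RV PAB-F 3 and 2. Nppa, the natriuretic peptide gene induced by wall stress, had 17453, 16127, 6034, 14091, 8530, 11410, 5308 and 5715 CPM in them in that order. These are ranks 1, 2, 7, 3, 5, 4, 10 and 9 of Nppa among the 99 libraries. The remaining 4 libraries with a ratio under 0 were Spt AOB-H 3 (-0.098), RV AOB-H 3 (-0.078), LV AOB-F 2 (-0.003) and LV PAB-F 1 (-0.002), with 5721, 2630, 3715 and 855.2 CPM of Nppa and ranks 8, 18, 15 and 40. Nppa rank 6 was the library labelled RV AOB-H replicate 1, from one of the 3 doubted animals.

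Cell type markers differed with the same libraries. The summed CPM of 10 cardiomyocyte markers, all in the table, was 69174 and 73746 in LV AOB-F replicates 1 and 4, 85813 and 88127 in replicates 2 and 3, and 90431 to 108626 in Sham-LF. That of 8 macrophage markers was 957.5 and 903.4, then 683.3 and 569.9, and 501.9 to 595 in Sham-LF. That of 8 fibroblast markers, of which 7 were tested and 1 was called higher in LV AOB-F, was 3675 and 3952, then 3064 and 2896, and 2469 to 2713. The endothelial sum was 1112 in replicate 1 and also under the Sham-LF range of 1300 to 1378 in replicate 4. It was 1527 and 1438 in replicates 2 and 3. That of smooth muscle and pericyte markers was 337.9 and 368.1, then 497.9 and 408.4, and 382.3 to 445.4 in Sham-LF. The atrial sum of Myl7, Myl4 and Sln was 537.7 in replicate 4 and from 19.7 to 43.3 in the other 3. Myh6 alone had 2309 to 10482 CPM in LV AOB-F and 12616 to 14288 CPM in Sham-LF. A lower sum cannot tell fewer cells from less RNA per cell. The part of these cell types in the Rpl3l difference was not tested.

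None of the other paralogs was called in the banding, age and chamber comparisons. Rps27l had 121.8, 61.0, 49.9 and 92.6 CPM in LV AOB-F and 50.2, 61.9 and 61.8 CPM in Sham-LF, so replicates 1 and 4 were again the separate ones. Its log2 fold change was 0.49 ± 0.251 (SE) with an adjusted p of 0.425, while its core relative Rps27 stood at -0.03 ± 0.246. Rpl22l1 had 101.5 ± 2.32 (SD, n = 4) CPM in LV AOB-F and 123.1 ± 14.5 (n = 3) in Sham-LF, a log2 fold change of -0.28 ± 0.243 with an adjusted p of 0.775. Rpl22 had 129.2 ± 22.3 and 118.0 ± 24.5 CPM and a log2 fold change of 0.13 ± 0.238. Rps4y2 had 25.4 ± 3.54 and 26.9 ± 5.91 CPM.

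Genes that work with the ribosome were taken from lists of the TOP class and of ribosome production. Over the 15 banding and age comparisons, 0 genes were called in each of these lists. The 4 ribosome partners in the table include Fau, which encodes a ribosomal protein fused to a ubiquitin-like protein, the scaffold Gnb2l1 and Rpl36al. Their medians ran from -0.310 to 0.281, a range like that of the core genes. All 4 were called lower in each of the series comparisons, where 22.2% to 28.4% of all genes were. The 16 translation factors of the TOP class, with medians from -0.084 to 0.092, and 23 tested genes of ribosome biogenesis, with medians from -0.094 to 0.033, had narrower ranges. The 11 tested genes of the mTORC1 axis had medians from -0.118 to 0.113.

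Between RV and LV of shams a few genes of these lists were called where no core gene was. Nop58, a core protein of the small nucleolar particles that methylate ribosomal RNA, was higher in RV by 0.46 ± 0.111 (SE, adjusted p 0.00411), and Taf1d, a factor of RNA polymerase I, by 0.64 ± 0.15 (adjusted p 0.00298). Nob1 and Nop14, which mature the small subunit, were higher by 0.21 and 0.18. Eef2, the elongation factor that moves the ribosome along, was lower in RV by 0.23 ± 0.08 (adjusted p 0.0419), and the kinase Akt1 by 0.41 ± 0.135 (adjusted p 0.0346). In all, 4 of 23 biogenesis genes were called higher and 0 lower, and 1 of 16 TOP factors and 1 of 11 mTORC1 genes were called lower, beside 12.6% of all genes in either direction.

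Mitochondrial ribosomal proteins form a separate set made for the ribosomes of the mitochondria. Of 66 tested, 0 were called in the banding and age comparisons. Their medians were -0.213 in LV AOB-F, -0.221 in Spt AOB-F and -0.281 in RV AOB-F, while the core genes had 0.054, -0.054 and -0.281 there. In the older shams their medians were 0.105 in RV and -0.017 in LV, below the core medians of 0.306 and 0.153. Between library series 60, 59, 56 and 55 of the 66 were called lower in the 4 comparisons, beside 28.3%, 28.4%, 22.2% and 24.3% of all genes. Their medians were -0.463, -0.488, -0.321 and -0.338. Those of the 888 abundant short genes outside the members were -0.41, -0.42, -0.30 and -0.35. Both kinds of ribosomal protein gene thus differed between series in the same direction as short genes in general. Eef1a2, the elongation factor of muscle and heart, was called in none of the banding and age comparisons, with log2 fold changes between -0.344 and 0.302.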

How the data were processed

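Polyadenylated RNA of each chamber was sequenced as 75-base single-end reads from directional libraries. Per the study's methods the authors used Trim Galore for trimming, STAR for mapping to Rnor6.0 with UCSC annotation, and featureCounts without multiple overlaps for counting. Whether counting used the strand is not given in the sources used here. The deposited table holds raw read counts, size-factor normalized counts (a signal scale, from DESeq2) and FPKM values by the authors. Lengths were computed as deposited normalized counts over FPKM. Only counts were tested, with edgeR 4.0.16 (R 4.3.3) quasi-likelihood, TMM normalization and filterByExpr. Each chamber's 33 libraries entered 1 fit for banding and age, all 99 for chambers, and the H libraries with condition for series. Levels are TMM-scaled CPM. Benjamini-Hochberg adjustment ran over all genes tested, and genes under 0.05 are called. DESeq2 1.42.0 was the alternative test. Replicates are separate animals.

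Label conflicts were settled by title and source name. The tissue field of RV samples names the left ventricle, and the column of RV Sham-LF replicate 1 names the other older sham group. Members, gene lists and series were chosen with earlier results of these data known. Genes named are the paralogs and their relatives, 4 reference genes, the extremes of level and of variability, the largest called changes or else the lowest p per comparison, and genes on which a result turns. Rpl36, Rps20, Rps28, Rps29 and the list genes between RV and LV were named after their values were seen. The 10 cell type lists held cardiomyocyte, macrophage, fibroblast, endothelial, lymphocyte, smooth muscle and pericyte, erythroid, atrial, adipocyte and mesothelial markers. On counts simulated for LV AOB-F against Sham-LF, the fit recovered 91.5% of changes of 1 log2 unit and 98.5% of 2 log2 units among 200 altered genes. Changes under 1 log2 unit were not simulated, so these rates do not cover shifts of the size of the core medians. Same-numbered animals deviated together in all pairs (r from 0.141 to 0.915) in RV AOB-H with Sham-H, whose numbers also share a library series. They also did so in the 2 pairs of Spt PAB-F with Sham-RF (r from 0.198 to 0.27). Of the genes the rule and lists name, 2 are not reported here, though counts and medians include them. Counting error is the only error that read depth covers.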

Additional observations from a re-analysis of the deposited data

Results flagged for a closer look

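Of 13 quantities checked in 12 groups of 4 to 7 animals, 11 values were farther from the rest of their group than Dixon's 95% limit allows, and chance gives about 1 in 20 of the 156 checks. Most lay in Spt Sham-H replicate 5, where 8 quantities stood above the other 6 animals. Its CPM was 783.0 for Rpl3l (others 464.4 to 547), 273.1 for Rpl22 (87.4 to 149.1), 314.5 for Rpl22l1 (81.8 to 127.1) and 1107 for Rps27 (408.2 to 694.3). It was 112.2 for Rps27l (42.4 to 65.0), 2356 for Rplp0 (1202 to 1614), 2382 for Rpl13a (804.2 to 1271) and 760.0 for Rps18 (215.3 to 438.4). The library also had the highest core share, 4.798%, and its part in the core medians of the Spt comparisons is given beside them.

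The other 3 were in library series 1. Rpl3l was at 671.6 CPM in LV Sham-H replicate 2 (others 463.8 to 542.2) and at 680.7 CPM in RV AOB-H replicate 2 (483.1 to 565.5). Rpl22l1 was at 155.1 CPM in LV Sham-H replicate 1 (81.2 to 107.3).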

How the results depend on the processing

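Over all alternatives, 354 of the counts of core genes called in a comparison stayed as they were and 5 moved, and 353 of the core medians moved by less than the spread between replicates while 6 moved by more. With only the compared groups in the fit, 4 core genes were called lower in Spt PAB-F (Rpl31, Rpl38, Rps10 and Rps25), where 792 genes were called in place of 0. With the library series as a covariate 4 were called in older RV, and with the animal as a replicate block 1 between RV and LV, as also without the 3 doubted animals. Leaving out single animals gave 0 to 1 there. The core median of Spt PAB-F ran from -0.34 to -0.151 without single animals. That of RV PAB-F ran from -0.117 to -0.046, and was -0.046 with the replicate number as a block (the replicate block).

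The ratio of Rpl3l to Rpl3 changed sign only where its difference was small. For LV AOB-H it was 0.168 and 0.185 within series 1 and 3, and -0.077 to 0.084 without single animals. For Spt PAB-H it was -0.154 within series 2, -0.012 without the doubted animals and -0.051 to 0.073 without single animals. For RV AOB-H it was -0.138 and -0.185 within series 1 and 2, -0.005 from the edgeR fold changes and -0.035 to 0.147 without single animals. It was -0.017 for RV PAB-H within series 2 and -0.019 for older Spt without the doubted animals, with -0.063 to 0.139 for single animals. Single animals gave -0.004 to 0.304 for LV PAB-F and -0.054 to 0.138 for Spt PAB-F. The cause was not tested.

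Counts of all genes called depended on the fit. In LV AOB-F 98 became 247 with DESeq2, 143 with all 99 libraries, 366 with the series covariate, 2 with the replicate block and 0 with only the compared groups, and in Spt AOB-F 27 became 144, 1, 133 (replicate block) and 0 (only the compared groups). The replicate block called 0 core genes in the 12 banding comparisons. Same-numbered H animals in LV and RV share a library series, and their r ran from 0.027 to 0.896 in LV PAB-H, -0.18 to 0.85 in LV AOB-H and 0.043 to 0.817 in RV PAB-H. No label used here names a common litter or day, and in the H groups at most 2 of 7 banded animals correlated best with the sham of their own number. In the F groups it was 2 of 2 in LV PAB-F and Spt PAB-F, 1 of 2 in RV PAB-F and 2 of 3 in Spt AOB-F. For LV AOB-F it was 1 of 3 and for RV AOB-F 0 of 3. Groups of 2 to 4 animals, and 25 to 143 reads for Rps9, Rpl8 and Rpl7a, limit what could be detected.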
